A study of Mus musculus with 90 samples.

Results

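Hairpin-bisulfite sequencing of WT mouse embryonic stem cells (ESCs) was examined across the 5 repeat classes whose scored WT library matches a sample label. With such a label there were 19 scored hairpin libraries from 4 lines and passages, and the series holds 90 samples. Scored entries without a matching label, those named b1 among them, were left out, so the classes ranked here are not all that were scored. The members were chosen by their label alone, as every scored library labelled as the V6.5 WT line, irrespective of methylation. WT cells were V6.5 ESCs without a targeted deletion. They were compared with TKO_L, a clonal J1 line that lacks catalytically active Dnmt3a and Dnmt3b and in which an shRNA depletes Dnmt1, and with DKO_0, derived from TKO_L by excision of the shRNA, at passages P1 and P5. All of these cells were grown on a feeder layer of mouse embryonic fibroblasts, whose share in the extracted DNA was not measured here. WT differs from the other lines in both strain background and genotype, so these cannot be told apart. Each class was amplified once per line, and 1 library stands behind every hairpin value. Intervals and p-values therefore cover the sampling of dyads within a library and not the spread between cultures.

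A CpG reads the same on both strands, and the pair of facing CpGs is called a dyad. After replication the parental strand keeps its methyl groups while the new strand lacks them, and Dnmt1, recruited by the hemimethylated-DNA reader Uhrf1, copies the pattern onto the new strand. Dnmt3a and Dnmt3b add methylation irrespective of the state of the partner strand. In the hairpin method a linker is ligated across the end of a digested fragment so that both strands are read in 1 molecule, and each dyad is scored as fully methylated, methylated on the right side only, methylated on the left side only, or unmethylated. The one-sided states are hemimethylated, and their share among all dyads with any methylation is the usual measure of incomplete maintenance.

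The classes span several kinds of repeat. Intracisternal A particles (IAPs) are a family of endogenous retroviruses, of which IAPEz is a subfamily, and IAP LTR is the long terminal repeat that drives IAP transcription. MuERVL is an endogenous retrovirus known for its activity in cleavage-stage embryos. Major satellites (mSat) are the tandem repeats of pericentromeric heterochromatin. L1mdT is a subfamily of LINE-1 elements, which move by retrotransposition and carry a CpG-containing promoter in their 5′ region.

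The amplified arms differ in CpG number and spacing, which sets how many dyads each read contributes. Each arm is shown on its strand with the CpGs in capitals, from the forward primer to the enzyme site next to the linker. CpGs inside the primer and the enzyme site are not marked. These are the arm sequences found most often among the copies of each class that the primers match in mm9, each with the position of 1 copy, and none of these copies lies in a protein-coding gene of GENCODE vM1.
IAPEz, chr1:19613631-19613756, minus strand: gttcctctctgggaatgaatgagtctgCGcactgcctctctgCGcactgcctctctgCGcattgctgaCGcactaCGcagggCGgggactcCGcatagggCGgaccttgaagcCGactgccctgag
IAP LTR, chr1:10720048-10720239, plus strand: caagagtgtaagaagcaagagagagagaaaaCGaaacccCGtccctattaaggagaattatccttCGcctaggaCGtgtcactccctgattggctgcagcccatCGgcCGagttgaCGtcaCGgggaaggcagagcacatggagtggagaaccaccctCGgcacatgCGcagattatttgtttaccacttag
MuERVL, chr1:16883836-16883987, plus strand: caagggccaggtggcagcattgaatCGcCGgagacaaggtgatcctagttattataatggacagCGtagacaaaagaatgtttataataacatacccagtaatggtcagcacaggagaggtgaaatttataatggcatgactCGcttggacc
mSat, chr9:3010725-3010871, minus strand: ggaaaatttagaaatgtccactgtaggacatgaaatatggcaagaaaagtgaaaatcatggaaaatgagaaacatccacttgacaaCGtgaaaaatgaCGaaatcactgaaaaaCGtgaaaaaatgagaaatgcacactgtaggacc
L1mdT, chr1:14104103-14104241, minus strand: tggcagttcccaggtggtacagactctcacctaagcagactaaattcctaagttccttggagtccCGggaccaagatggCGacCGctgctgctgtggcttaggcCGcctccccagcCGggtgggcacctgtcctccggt
The IAPEz arm was shared by 206 copies and holds 9 CpGs, the IAP LTR arm by 89 copies with 10 CpGs, the MuERVL arm by 137 copies with 4 CpGs, the mSat arm by 6 copies with 3 CpGs and the L1mdT arm by 357 copies with 5 CpGs. For IAPEz and IAP LTR the study scored reads against a shortened reference, given next because it fixes which dyads were counted.
IAPEz reference: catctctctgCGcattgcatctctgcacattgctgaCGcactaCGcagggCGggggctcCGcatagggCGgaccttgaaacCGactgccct
IAP LTR reference: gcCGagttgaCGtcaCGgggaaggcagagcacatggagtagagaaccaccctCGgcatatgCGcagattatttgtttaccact
The shortened IAPEz reference holds 7 CpGs and the shortened IAP LTR reference holds 5, fewer than the most frequent arms, so that not every CpG of those arms was scored. For MuERVL, mSat and L1mdT the 4, 3 and 5 dyads scored per read equal the CpGs of the arms above.

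Depth differed between classes. The MuERVL library was the shallowest, with 755 reads and 3020 scored dyads, and the IAP LTR library followed with 2483 reads and 12053 dyads. The IAPEz library held 4140 reads and 28540 dyads, the L1mdT library 7979 reads and 38615 dyads, and the mSat library 14551 reads and 43653 dyads. Dyads without a call made up 1.52% of IAPEz, 2.92% of IAP LTR and 3.21% of L1mdT dyads, and MuERVL and mSat had 0 such dyads. MuERVL thus has the widest intervals throughout. In the linker, whose cytosines are unmethylated, 2.0% of cytosines remained unconverted in the IAPEz library, 2.5% in IAP LTR, 1.3% in MuERVL, 1.5% in mSat and 1.2% in L1mdT.

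Most WT dyads were fully methylated in every class except L1mdT. IAPEz had 90.5% fully methylated dyads (95% Wilson interval 90.2% to 90.9%), mSat 87.8% (87.5% to 88.1%), IAP LTR 86.5% (85.9% to 87.1%) and MuERVL 81.2% (79.8% to 82.6%). In L1mdT the share was 33.2% (32.8% to 33.7%). All 10 pairs of classes differed in this share (Fisher's exact test per pair, two-sided, adjusted over the 10 pairs after Benjamini and Hochberg). The smallest gap separated IAP LTR from mSat, at -1.34 percentage points (95% interval of the difference from -2.03 to -0.661, adjusted p = 9.86e-05 by Fisher's exact test). Dyads on 1 read are not independent, and when counts were divided by the dyads per read, so that the number of reads set the precision, this pair was lost (adjusted p = 0.0602 by Fisher's exact test) and the other 9 remained past the threshold.

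**Figure D1:**
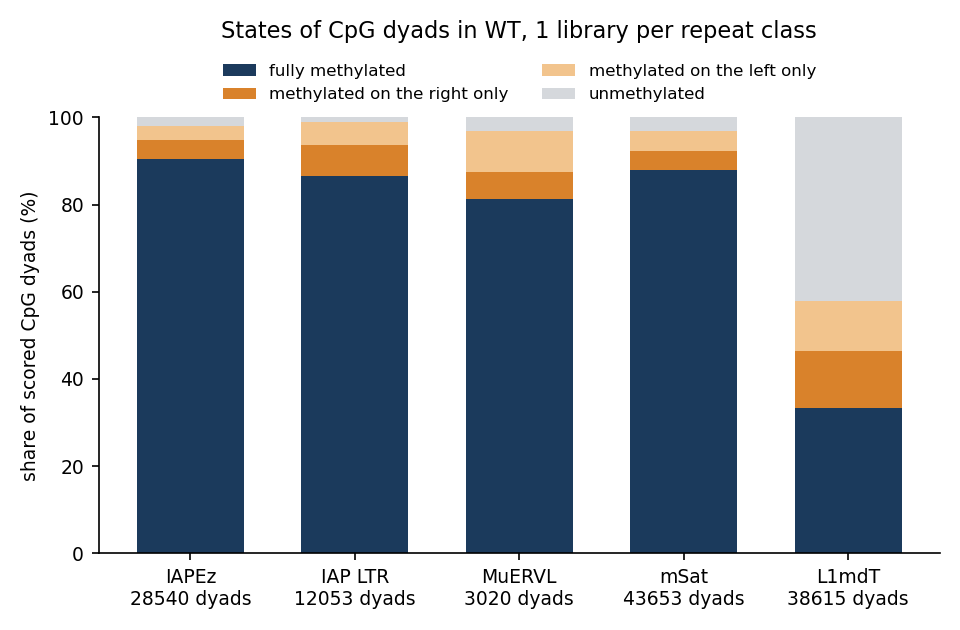
Stacked bars give the percentage of scored CpG dyads (y axis) in each of the 4 states for the 5 repeat classes in WT, with the number of dyads under each bar. In L1mdT 42.2% of dyads were unmethylated, whereas this share did not exceed 3.15% in the other classes.

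Unmethylated dyads were rare outside L1mdT. They made up 1.10% of IAP LTR dyads (0.932% to 1.31%), 1.94% of IAPEz (1.79% to 2.11%), 3.00% of mSat (2.85% to 3.17%) and 3.15% of MuERVL (2.58% to 3.83%). L1mdT had 42.2% (41.7% to 42.7%). Of the 10 pairs, 9 differed by Fisher's exact test, and the exception was MuERVL against mSat, where the difference was 0.142 points with an interval from -0.446 to 0.845 (adjusted p = 0.66, Fisher's exact test). The order of the classes by unmethylated share was not the reverse of the order by fully methylated share. IAP LTR had the lowest unmethylated share of all classes but ranked below IAPEz and mSat in fully methylated dyads, because 12.4% of its dyads were hemimethylated against 7.53% in IAPEz and 9.18% in mSat.

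Averaged over both strands, 94.3% of the CpGs in scored IAPEz dyads were methylated, 92.7% in IAP LTR, 92.4% in mSat, 89.0% in MuERVL and 45.5% in L1mdT. IAP LTR and mSat thus differed by little in the level that a conventional bisulfite assay would give, while their dyads were split differently. For each hemimethylated dyad there were 12 fully methylated dyads in IAPEz, 9.57 in mSat, 6.97 in IAP LTR, 5.20 in MuERVL and 1.36 in L1mdT.

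Among dyads with any methylation, the hemimethylated share was lowest in IAPEz and highest in L1mdT. It was 7.68% in IAPEz (7.38% to 8.00%), from 2150 of 27985 dyads. In mSat it was 9.46% (9.19% to 9.74%), from 4006 of 42342 dyads. IAP LTR followed with 12.6% (12% to 13.2%), from 1496 of 11920 dyads, and MuERVL with 16.1% (14.8% to 17.5%), from 472 of 2925 dyads. In L1mdT 42.5% (41.8% to 43.1%) of methylated dyads were hemimethylated, from 9471 of 22305. No intervals over dyads overlapped, and all 10 pairs of classes differed by Fisher's exact test, with both dyads and reads as the unit. Both IAP amplicons were among the pairs that differed, IAPEz minus IAP LTR being -4.87 points (-5.55 to -4.20, adjusted p = 6.83e-51, Fisher's exact test). IAPEz minus mSat was -1.78 points (-2.19 to -1.36), the smallest gap. IAP LTR minus MuERVL was -3.59 points (-5.08 to -2.16), and this pair had the largest adjusted p with reads as the unit (0.0157, Fisher's exact test).

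**Figure D2:**
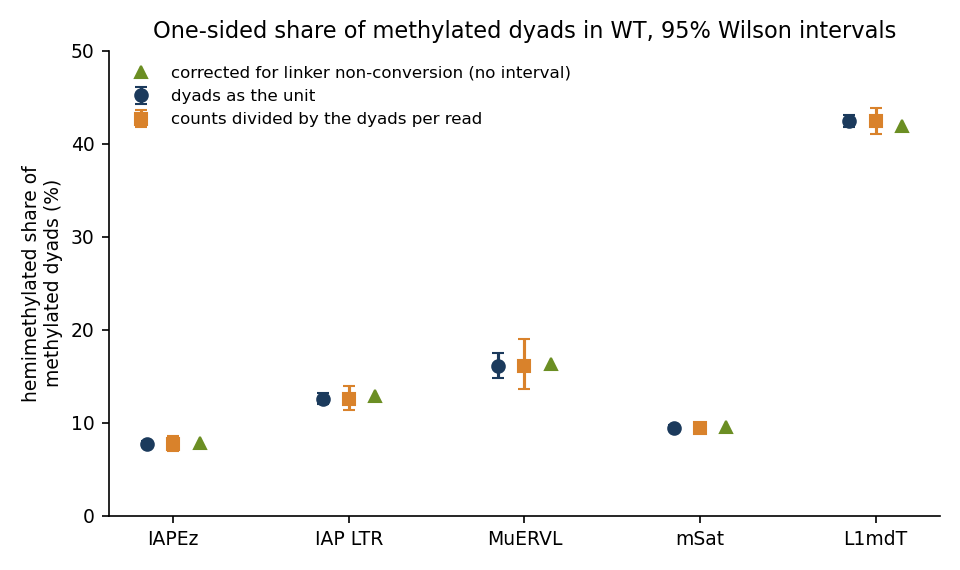
Points give the hemimethylated share of methylated dyads in percent (y axis) for each WT class, with 95% Wilson intervals from dyads (circles) or from counts divided by the dyads per read (squares), and without interval after correction for linker non-conversion (triangles). The 3 versions lie close together in every class, from 7.68% in IAPEz to 42.5% in L1mdT.

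Counted by CpG instead of by dyad, which by construction keeps the order of the classes, the shares were smaller. Of methylated CpGs, 3.99% lay in a hemimethylated dyad in IAPEz, 4.97% in mSat, 6.70% in IAP LTR, 8.78% in MuERVL and 27% in L1mdT. As a share of all dyads that were not fully methylated, the classes ranked differently. There, hemimethylated dyads made up 91.8% in IAP LTR (90.4% to 93.1%), 83.2% in MuERVL (79.9% to 86.1%), 79.5% in IAPEz (77.9% to 81.0%), 75.3% in mSat (74.2% to 76.5%) and 36.7% in L1mdT (36.1% to 37.3%). In the 4 highly methylated classes, then, a dyad that was not fully methylated usually carried methylation on 1 side, whereas in L1mdT most such dyads were free of methylation on both sides.

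An unconverted cytosine in an unmethylated dyad is scored as hemimethylated, and the linker gives its rate. From the unmethylated dyads and the linker of the same library, non-conversion was expected to yield hemimethylated shares of 0.0794% of dyads in IAPEz, 0.0566% in IAP LTR, 0.0829% in MuERVL, 0.0915% in mSat and 1.03% in L1mdT. These amount to between 0.456% and 4.18% of the hemimethylated dyads observed. The observed share exceeded the expected one 23.9-fold in L1mdT and 94.9-fold to 219-fold in the other classes. Even if every dyad that was not fully methylated had been unmethylated, non-conversion would have turned 2.37% to 4.88% of them hemimethylated, against 36.7% to 91.8% observed. After correction the hemimethylated share of methylated dyads was 7.76% in IAPEz, 9.52% in mSat, 12.8% in IAP LTR, 16.3% in MuERVL and 41.9% in L1mdT. The reverse error, in which a methylated cytosine is converted, leaves no trace in the linker and was not measured.

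The right and left sides did not carry equal shares in 4 of 5 classes. In IAPEz 1197 dyads were methylated on the right only and 953 on the left only, a right share of 55.7% (53.6% to 57.8%, exact binomial test against equal chance, two-sided, Benjamini-Hochberg over 5 classes, adjusted p = 2.59e-07). IAP LTR had 857 on the right and 639 on the left, or 57.3% on the right (54.8% to 59.8%, adjusted exact p = 4.77e-08). L1mdT had 5125 and 4346, or 54.1% on the right (53.1% to 55.1%, adjusted exact p = 6.28e-15). MuERVL had more on the left, with 186 right-only and 286 left-only dyads and 39.4% on the right (35.1% to 43.9%, adjusted exact p = 6.01e-06). The mSat library had 1968 and 2038, or 49.1% on the right, with an interval from 47.6% to 50.7% that includes equality (adjusted exact p = 0.276). With reads as the unit, L1mdT (adjusted exact p = 0.00148), IAP LTR (0.0305) and MuERVL (0.0350) remained past the threshold by the exact binomial test, and IAPEz did not (0.0592). The sources used here do not tie right and left to the strand of each repeat, so the sides of different classes need not be the same strand. Whichever side it was, the larger one held 60.6% of hemimethylated dyads in MuERVL, 57.3% in IAP LTR, 55.7% in IAPEz, 54.1% in L1mdT and 50.9% in mSat.

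**Figure D3:**
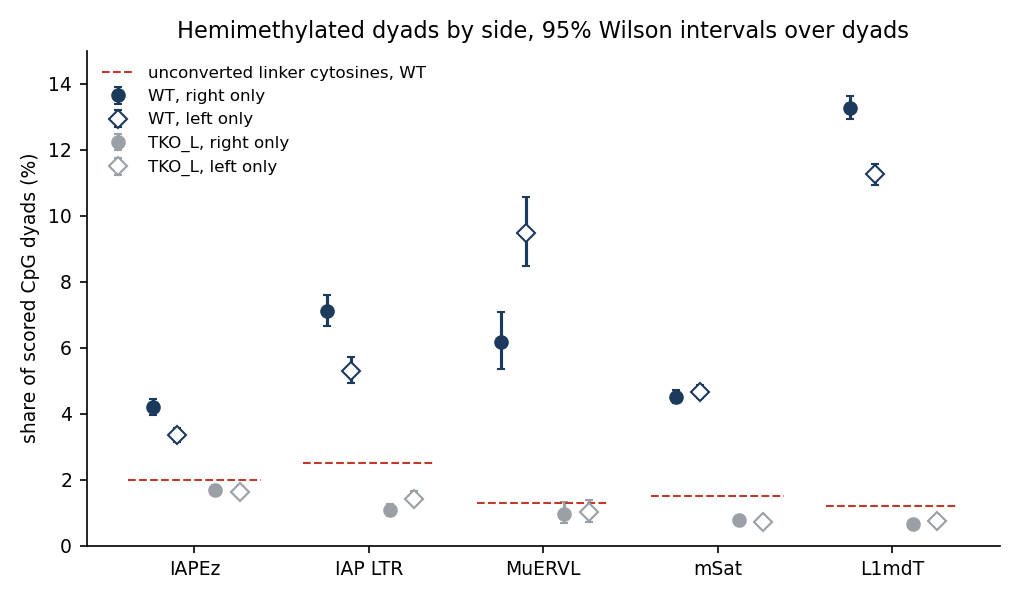
For each class, the percentage of dyads (y axis) methylated on the right only (circles) or left only (diamonds) is given for WT (dark) and TKO_L (grey) with 95% Wilson intervals, and the dashed line marks the unconverted share of linker cytosines in the WT library. Both WT sides lie above the dashed line in every class, and the left exceeds the right most clearly in MuERVL, at 9.47% against 6.16%.

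In the methylation-depleted TKO_L line, processed in the same way, one-sided dyads were few. Right-only dyads made up 0.656% to 1.68% and left-only dyads 0.724% to 1.64% of TKO_L dyads, at or below the unconverted share of linker cytosines of these libraries, 1.0% to 2.7%. The right share of TKO_L hemimethylated dyads was 50.7% in IAPEz (47.4% to 54.0%), 51.5% in mSat, 48.5% in MuERVL (37.1% to 60.2%, from 68 dyads), 46.7% in L1mdT (41.5% to 51.9%) and 43.1% in IAP LTR (37.8% to 48.6%). For IAP LTR, the left side was the higher one in all 3 other libraries, opposite to the 57.3% on the right in WT. The right share was 43.1% in TKO_L, 45.7% in DKO_0 P1 (40.3% to 51.2%) and 42.7% in DKO_0 P5 (39.0% to 46.5%). L1mdT likewise had more on the left in all 3, against 54.1% on the right in WT. Its right share was 46.7%, 43.3% (37.6% to 49.1%) and 47.7% (43.1% to 52.4%). In these DKO_0 libraries, too, each side lay below the unconverted share of linker cytosines. The sides of IAP LTR held at most 1.47% of dyads at P1 and 2.11% at P5, against 2.5% and 2.9% unconverted. Those of L1mdT held at most 0.935% and 1.08%, against 1.2% and 1.1%. How much of these one-sided dyads stems from non-conversion was not tested. In IAPEz, DKO_0 P5 had 56.6% on the right (54.0% to 59.1%), near the WT value. These differences in side between lines were not tested.

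Methylation of one side went along with methylation of the other in every class, but to different degrees. In L1mdT the right side was methylated in 74.7% of dyads whose left side was methylated and in 23.9% of the others. In IAPEz the corresponding shares were 96.4% and 68.3%, in mSat 95% and 60.0%, and in MuERVL 89.6% and 66.2%. IAP LTR had the narrowest gap, with 94.2% and 86.6%. As log2 odds ratios, the association was 3.65 ± 0.09 (SE over dyads) in IAPEz, 3.65 ± 0.06 in mSat, 3.23 ± 0.03 in L1mdT, 2.13 ± 0.20 in MuERVL and 1.34 ± 0.15 in IAP LTR. With reads as the unit, the interval of IAP LTR (0.71 to 1.97) did not overlap those of IAPEz (3.20 to 4.10), mSat (3.44 to 3.85) or L1mdT (3.08 to 3.38), and it overlapped that of MuERVL (1.34 to 2.93).

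**Figure D4:**
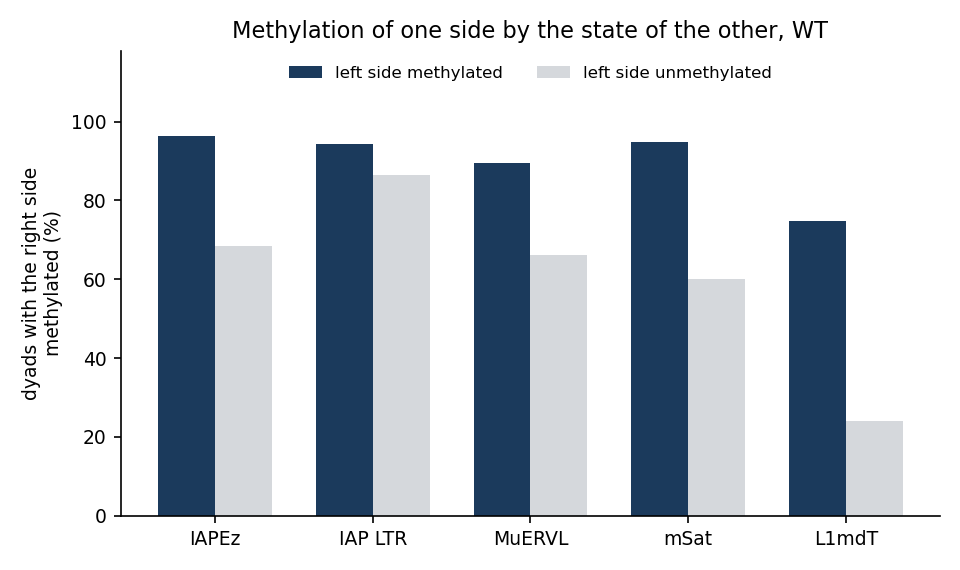
Bars give the percentage of WT dyads whose right side was methylated (y axis), among dyads with the left side methylated (dark) or unmethylated (grey), for each class. The gap between the bars is widest in L1mdT, 74.7% against 23.9%, and narrowest in IAP LTR, 94.2% against 86.6%.

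Another measure sets the observed shares against the product of the side levels, which is the share of dyads in each state if the sides were methylated independently of each other. The observed hemimethylated share divided by that of the product was 0.915 in IAP LTR (12.4% against 13.6%). It was 0.799 in MuERVL (15.6% against 19.6%), 0.699 in IAPEz (7.53% against 10.8%), 0.654 in mSat (9.18% against 14.0%) and 0.494 in L1mdT (24.5% against 49.6%). L1mdT thus had the highest hemimethylated share and, measured against its lower methylation level, the fewest hemimethylated dyads relative to independent sides. The odds ratios ordered the classes differently, with IAPEz (log2 3.65) and mSat (3.65) above L1mdT (3.23). The deposited counts do not separate copies, so differences between copies and differences within a copy cannot be told apart.

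Set beside the other lines, WT had the lower hemimethylated share of methylated dyads in all 14 comparisons (Fisher's exact tests within class, Benjamini-Hochberg over 14, largest adjusted p = 2.68e-10, and 0.00356 with reads as the unit). In IAPEz the share was 56.6% in TKO_L, 53.2% in DKO_0 P1 and 38.4% in DKO_0 P5 against 7.68% in WT. In L1mdT it was 87.2%, 78.3% and 53.6% against 42.5%. In IAP LTR it stayed between 98.4% and 99.4% in the other lines, where only 315 to 673 dyads carried any methylation. How much of the hemimethylated share in the other lines stems from non-conversion was not tested. When the linker rate was taken off, the corrected share of the other line fell below that of WT in 12 of the 14 comparisons, in most cases to 0. In these 12 the one-sided shares of the other line lay near or below the linker rate of the library. Outside IAPEz, corrected counts below 0 were set to 0, so few or no hemimethylated dyads were left by construction. In IAPEz some remained, and WT minus line was 5.12 points for TKO_L and 2.16 for DKO_0 P1 (adjusted p = 6.12e-08 and 0.0172, Fisher's exact test). There the one-sided shares lay near the linker rate, which is given without counts. They were 1.68% and 1.64% against 1.7% in TKO_L, and 1.85% and 1.75% against 1.8% in DKO_0 P1. The 12 reversals therefore cannot show which line had the higher share. Of these 12, 5 were not past the threshold, namely IAP LTR against all 3 lines and MuERVL against TKO_L and DKO_0 P1 (adjusted p from 0.128 to 1, Fisher's exact test). The exceptions, IAPEz and MuERVL in DKO_0 P5, shrank from -30.7 to -13.4 and from -46.8 to -11.1 points (WT minus DKO_0 P5), the latter with adjusted p = 0.00657 by Fisher's exact test. Fully methylated dyads, which 2 unconverted cytosines seldom produce, were 2.55% of IAPEz and at most 0.445% of the other classes in TKO_L.

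To place the classes on other readouts of the same line, copies whose sequence matches both primers were sought in mm9. Without mismatch, 1037 IAPEz, 279 IAP LTR, 676 MuERVL and 1445 L1mdT copies were found, and 0 mSat copies. Up to 2 mismatches in each primer gave 1713, 1792, 807, 1951 and, for mSat, 123 copies. Arms of exact IAPEz copies held between 1 and 25 CpGs with a median of 9, and those of exact MuERVL copies a median of 4. Between 16.8% (IAP LTR) and 26.5% (MuERVL) of exact copies lay in protein-coding genes, and at most 0.358% touched a coding gene's exon. These counts describe the reference genome, and the copies that V6.5 cells carry or that were amplified were not determined.

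H3K9me3 marks heterochromatin and is bound by Uhrf1, and Trim28 is the co-repressor that brings H3K9 methylation to retroviral repeats. Peaks of H3K9me3 and Trim28 came from WT V6.5 cells and those of Uhrf1 from V6.5 cells with a FLAG tag on the endogenous protein, with 2 replicate lists each. Of exact IAPEz copies, 73.7% and 74.3% lay under an H3K9me3 peak in replicates 1 and 2 (mean 74.0% ± 0.409, SD, n = 2). L1mdT copies did so in 30.2% and 27.7%, IAP LTR copies in 17.2% and 15.8%, and MuERVL copies in 1.18% and 1.04%. The lists covered 0.324% and 0.291% of the genome. An overlap of 1 bp sufficed for each mark, so the covered share understates how often copies placed at random would overlap. IAPEz, with the lowest hemimethylated share, had the most copies under H3K9me3 of the 4 classes with exact copies, L1mdT, with the highest hemimethylated share, came next, and MuERVL came last. When only peaks with a -log10 q-value at or above 5 counted, L1mdT (0.242%) fell below IAP LTR (1.08%).

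Uhrf1 peaks covered IAP LTR copies most often, 76.7% and 87.8% in the 2 replicates. For IAPEz the replicates stood far apart, at 17.5% and 71.8% (44.6% ± 38.5, SD, n = 2), with 30134 and 49156 peaks in the lists. MuERVL had 0.296% and 1.48%, and L1mdT 0.346% and 1.52%. The lists covered 0.278% and 0.517% of the genome. Trim28 peaks lay over 57.1% and 22.7% of IAPEz copies, 40.9% and 35.8% of IAP LTR copies, 14.5% and 6.64% of L1mdT copies, and 2.37% and 0% of MuERVL copies, with 0.234% and 0.141% of the genome covered. In each of the 6 lists MuERVL copies had the lowest share of the 4 classes, by a narrow margin to L1mdT for Uhrf1. With up to 2 mismatches, mSat copies lay under peaks in 73.6% (H3K9me3), 58.1% (Uhrf1) and 60.2% (Trim28) on average over replicates, from 123 copies. Their H3K9me3 share exceeded the 66.7% of IAPEz copies found in the same way. Of these mSat copies, 49.6% lay in protein-coding genes, 44.7% touched a coding gene's exon, and only 34 held the 3 CpGs scored. Whether they stand for the amplified satellites was not determined. The shares of copies under peaks were not tested. How reads that fit several copies were placed is not given in the sources used here.

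**Figure D5:**
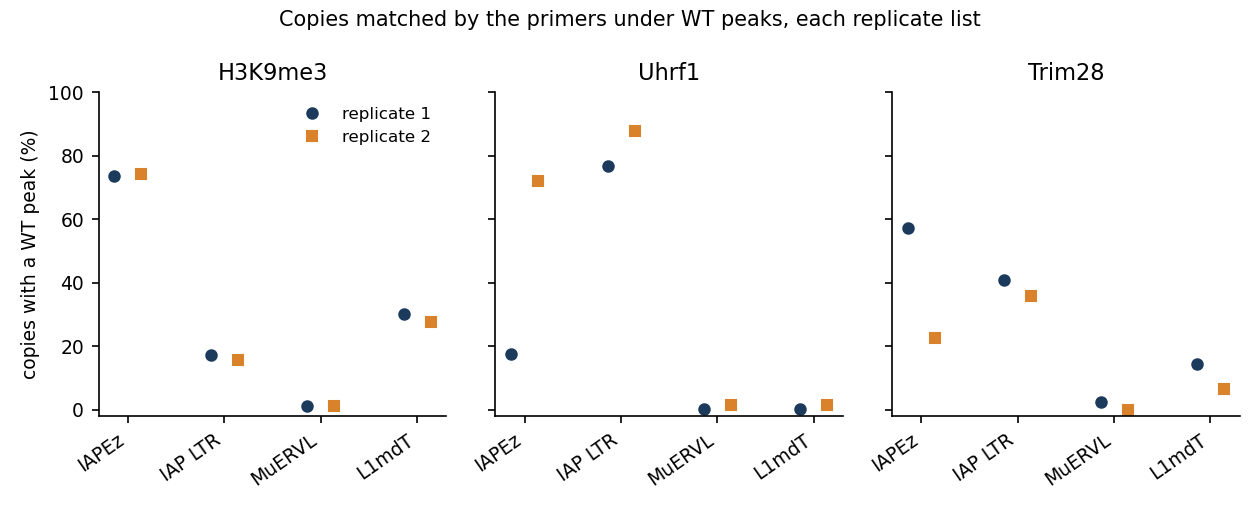
Each panel gives, for 1 mark, the percentage of copies matched by both primers without mismatch that overlap a WT peak by at least 1 bp (y axis) for 4 classes, with circles for replicate 1 and squares for replicate 2. MuERVL lies near 0 in all panels, IAPEz is highest for H3K9me3, and the replicates of Uhrf1 and Trim28 differ widely for IAPEz.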

How the data were processed

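For the hairpin libraries the authors digested 200 ng of DNA, ligated the linker, amplified with 37 and 6 PCR cycles, sequenced 250-base read pairs, scored dyads with BiQAnalyzerHT (identity at least 0.8) and Hairpinanalyzer (linker conversion at least 0.8), and deposited whole-number counts of reads and dyads per state. The deposited linker conversion is a fraction of cytosines without the counts behind it. Per the file headers and labels, 19 lines of the table matched a sample. A further 5 lines that match no sample, those named b1 among them, were left out, and so was 1 column of values. The WT L1mdA library was not analysed here. The copies of a PCR molecule are not marked, so intervals cover counting error only.

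Per the labels and the study's methods, the ChIP reads were aligned to mm9 with BWA, duplicates were removed with GATK and peaks were called with MACS2 per replicate. The authors' lists give a fold enrichment and a -log10 q-value per peak. Only the 6 WT replicate lists were used, and depth is unknown from them.

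Shares with 95% Wilson intervals, Newcombe intervals of differences, two-sided Fisher's exact and exact binomial tests with Benjamini-Hochberg adjustment (threshold 0.05) were computed from the counts. The correction took the unconverted linker share as equal and independent on both sides. Bisulfite primers and references are the study's, and both primers were matched to 21 chromosomes of mm9 within 100 bp of each other, with an arm of at most 400 bp to the enzyme site (DdeI for IAPEz and IAP LTR, Eco47I for MuERVL and mSat, BsaWI for L1mdT). Every class with a scored WT library that matches a label is named. Alternatives were counts divided by the dyads per read, linker correction, CpGs as the unit, 2 primer mismatches, copies widened by 500 bp, a -log10 q-value of at least 5 and each replicate left out. Correction by the side shares of TKO_L, the use of reads for unmethylated dyads, linker correction of the sides, turned sides between classes and mismatched copies under peaks were added after seeing the data. The classes, tests and alternatives were chosen with earlier results of these data known. On simulated pairs of classes with dyads drawn independently, 48 of 1000 with equal shares had Fisher p under 0.05. With shares of 10% and 15%, 1000 of 1000 did. Dyads that share a read or a PCR molecule were not simulated, so the error rate of the tests on the real dyads was not measured. The primer search found 79 of 79 planted copies with up to 2 mismatches. Scripts ran on Python 3.11.15 with scipy 1.17.1, numpy 2.4.6 and, for plots, matplotlib 3.10.9.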

Additional observations from a re-analysis of the deposited data

Results flagged for a closer look

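The right share of hemimethylated dyads differed between repeat classes of WT in 8 of 10 pairs by two-sided Fisher's exact test with Benjamini-Hochberg adjustment over the pairs, with the sides as named in the table. The difference was 16.3 percentage points for IAPEz minus MuERVL, 17.9 for IAP LTR minus MuERVL, -9.72 for MuERVL minus mSat and -14.7 for MuERVL minus L1mdT. For mSat there were 6.55 points for IAPEz minus mSat, 8.16 for IAP LTR minus mSat and -4.99 for mSat minus L1mdT. IAP LTR minus L1mdT was 3.17 points. With reads as the unit, 5 of the 10 pairs remained past the threshold, 3 of them with MuERVL. Each class has 1 library, and the strand called right in each amplicon is not given in the sources used here, so the sides of 1 class may have to be turned. With the sides of the second class turned, 6 of the 8 pairs were still past the threshold, but mSat minus L1mdT among them changed sign, from -4.99 to 3.24 points. The pairs of MuERVL with IAPEz and IAP LTR, which had the widest gaps as named, were no longer past it.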

How the results depend on the processing

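No paired analysis was possible because the hairpin libraries have 1 sample per class, and the shares under peaks are a description on which no test was run. With counts divided by the dyads per read, 5 differences kept their direction but missed the threshold: the fully methylated share of IAP LTR minus mSat (-1.35 points, adjusted p = 0.0602, Fisher's exact test), right minus left in IAPEz (0.869 points of dyads), and the right share of hemimethylated dyads for IAPEz minus mSat (6.63), IAP LTR minus L1mdT (3.17) and MuERVL minus mSat (-10.2). Reads carry fewer units than dyads by construction. The other 64 tested differences kept direction and side of the threshold, as did all 40 under correction by the side shares of TKO_L. Counting CpGs instead of dyads cannot change the order of the classes and gave no test. With the sides of the second class turned, the left share of its hemimethylated dyads was taken from the right share of the first class. This difference became 13 points for IAPEz and IAP LTR and -4.92 for IAPEz and MuERVL. It became -3.31 for IAP LTR and MuERVL and 3.24 for mSat and L1mdT. Each of these was opposite to its sign as named. IAPEz and IAP LTR, not past the threshold as named (adjusted p = 0.342), passed it when turned (adjusted p = 4.995e-14, Fisher's exact test). IAPEz and L1mdT also passed it, at 9.79 points.

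Under linker correction 47 tested differences kept direction and side of the threshold, of which IAPEz and MuERVL in WT minus DKO_0 P5 shrank to -13.4 and -11.1 points. It moved the log2 odds ratio of L1mdT to 3.34, and it reversed 12 differences in the hemimethylated share of methylated dyads between WT and the other lines. WT minus line became 5.12 points in IAPEz for TKO_L and 2.16 for DKO_0 P1, 12.8 in IAP LTR for TKO_L, DKO_0 P1 and DKO_0 P5, 16.3 in MuERVL for TKO_L and DKO_0 P1, 9.52 in mSat for TKO_L and DKO_0 P1, and 41.9, 41.9 and 41.4 in L1mdT for TKO_L, DKO_0 P1 and DKO_0 P5. Of these 12, 5 in IAP LTR and MuERVL were not past the threshold. Outside IAPEz, corrected counts below 0 were set to 0, which by construction leaves the depleted lines with few or no hemimethylated dyads. In IAPEz some remained, from one-sided shares that lay near the linker rate.

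Allowing 2 mismatches in each primer raised the copies to 1713 (IAPEz), 1792 (IAP LTR) and 123 (mSat). Among these, the mean share under H3K9me3 peaks was 66.7% in IAPEz, 9.93% in IAP LTR and 0.929% in MuERVL, under Uhrf1 peaks 71.0% in IAP LTR and under Trim28 peaks 20.1% in IAP LTR. Widening copies by 500 bp raised H3K9me3 to 95.2% (IAPEz), 46.8% (IAP LTR), 6.21% (MuERVL) and 63.1% (L1mdT), Uhrf1 to 91.0% (IAP LTR), 2.88% (MuERVL) and 4.05% (L1mdT), and Trim28 to 79.0% (IAPEz), 58.4% (IAP LTR), 15.4% (MuERVL) and 28.4% (L1mdT). With peaks limited to a -log10 q-value at or above 5, H3K9me3 fell to 14.4%, 1.08%, 0% and 0.242% in IAPEz, IAP LTR, MuERVL and L1mdT, Uhrf1 to 2.84%, 15.4% and 0% in IAPEz, IAP LTR and MuERVL, and Trim28 to 12.4%, 5.20% and 0.0346% in IAPEz, IAP LTR and L1mdT. These values are means of 2 replicates, which stood far apart in places, Trim28 among them. With the q-value limit, Trim28 replicates were 23.7% and 1.06% in IAPEz and 9.32% and 1.08% in IAP LTR. For widened MuERVL copies they were 25% and 5.77%. Without widening or limit, leaving 1 replicate out gave 17.5% to 71.8% for Uhrf1 and 22.7% to 57.1% for Trim28 in IAPEz. The cause of these shifts was not tested. MuERVL is limited by its 755 reads.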
